A study of Canis lupus familiaris with 10 samples.

Results

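The genes of MHC class II antigen presentation were examined in canine cutaneous histiocytoma (CCH). This benign tumor of canine skin arises from Langerhans cells and usually disappears without treatment. They were chosen by name. All 8 symbols of the expression table that start with DLA-D or HLA-D were taken, together with CD74, CIITA, IFI30 and CTSS, which gave 12 genes of the 23266 in the table. The class II symbols begin with DLA, for dog leukocyte antigen, except HLA-DRB1, for which the table uses the human name for the canine gene. Expression had been measured with QuantSeq 3′ RNA-Seq of formalin-fixed, paraffin-embedded (FFPE) tumors from 10 pet dogs of differing breeds, a different dog for each library. The 5 early tumors belong to group 1 and the 5 late tumors to group 3 of a histological staging scheme, and the late tumors are labeled as enriched in lymphocytes. No dog is described as treated. All 10 are labeled as repeated analyses of earlier entries, and tissue around the tumor had been removed before RNA extraction.

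Class II molecules carry peptides from engulfed proteins to the cell surface, where CD4 T cells inspect them. Each is a pair of an alpha and a beta chain. CD74, the invariant chain, holds new pairs together and blocks their groove on the way to the endosome. There the protease cathepsin S (CTSS) trims CD74, and the thiol reductase encoded by IFI30 opens disulfide bonds of the proteins to be presented. The pair DM then exchanges the last CD74 fragment for a peptide, and the pair DO restrains DM, mostly in B cells. CIITA is the coactivator without which the class II genes and CD74 are hardly transcribed. Langerhans cells, macrophages, dendritic cells and B cells all use this machinery, and in bulk tissue fewer cells of a type and less RNA per cell cannot be told apart.

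The libraries held between 2973125 and 4439709 reads assigned to genes, and values are normalized read counts, that is, reads divided by 1 size factor per library. Because each transcript gives a single fragment near its 3′ end, counts do not grow with transcript length, and levels of different genes were set side by side on this scale. Late and early libraries came from different extraction batches and index sets, each of which held only 1 stage, and therefore a batch effect and a stage effect cannot be told apart here. The labels give a higher share of RNA fragments over the DV200 length threshold for late (73.2% ± 2.09) than for early samples (68.5% ± 2.46, SD, n = 5 each), and the part of RNA quality in the results was not tested. The labels of the stages were set against cell type markers. Of 10 Langerhans and dendritic cell markers tested with limma, 2 were called lower in late CCH by the rule given with the first comparison (FLT3 and FCER1A). By that rule 2.17% of all genes tested were called. With the less strict Benjamini-Hochberg (BH) adjustment, which called 9.04% of all genes tested, 4 were lower and 1, CCR7, was higher. The median log2 fold change of these markers was -0.90. CD207, the gene of langerin, was not analysed here. The summed level of 10 T cell markers ranged from 64.7 to 2249 in early and from 4105 to 5909 in late CCH, so all late libraries lay above all early ones. Of these 10 markers, 1 was called higher by the same rule (CD6), and 10 were higher with BH.

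Transcripts of HLA-DRB1, CD74 and DLA-DRA were among the 34 most abundant in every library, whereas the rank of DLA-DQB1 fell to 738 and that of DLA-DOA to 12770. The differences of the presenting class II chains between the stages had 95% intervals that included 0. In early CCH 2.22% ± 0.34 of all reads fell on the 12 genes, and in late CCH 2.46% ± 0.38 (SD, n = 5 each). HLA-DRB1 alone took 0.987% ± 0.173 and 1.11% ± 0.171, respectively, and was the most abundant gene of all in 2 of the 10 libraries. Of the 12 genes, limma called only IFI30, which was 3.02-fold lower in late CCH. A call needed an adjusted p of at most 0.05 after the Benjamini-Yekutieli (BY) procedure and a log2 fold change (log2FC, late minus early) of at least 1 in size. By this rule 2.17% of the 12397 genes tested were called, 1.06% as higher and 1.11% as lower in late CCH, so that 1 call among 12 genes has to be read against this share. DLA-DOA had the highest log2FC, 3.47, but missed the threshold.

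**Figure D1:**
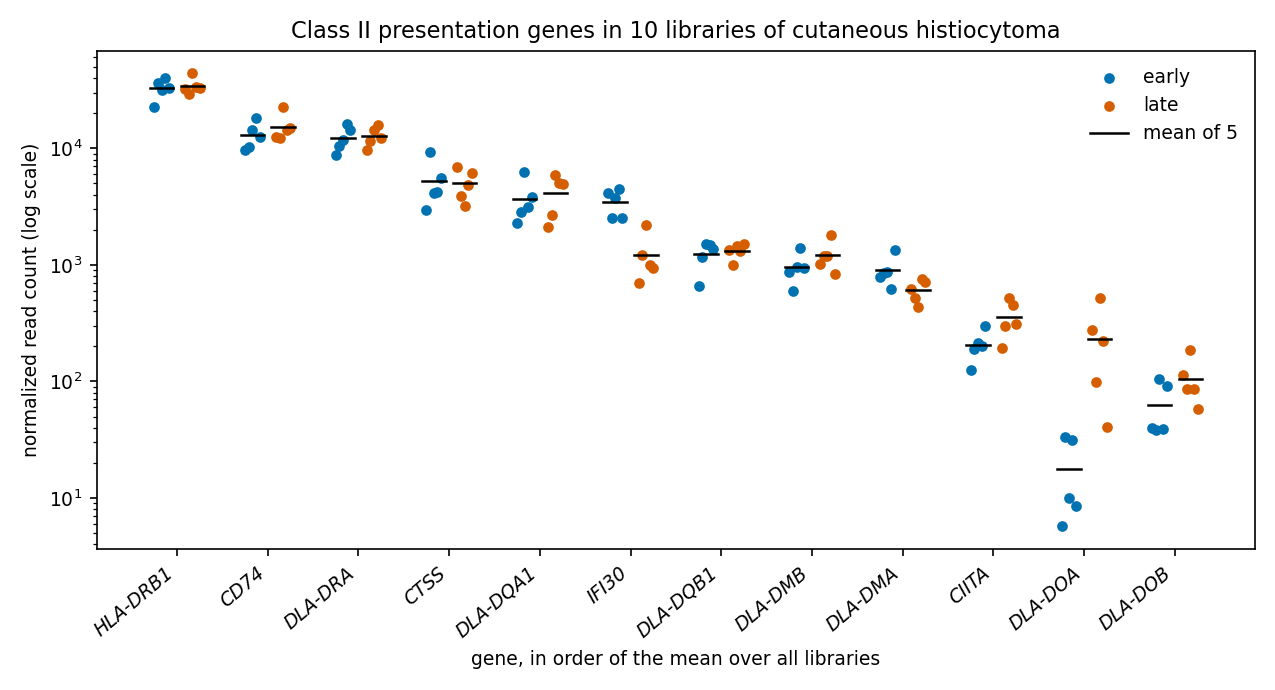
Normalized read count (log scale) of the 12 genes in each library, in order of their mean over the 10 libraries. Points are libraries, with early CCH on the left and late CCH on the right of each pair, and the line is the mean of 5. The stages lie apart for IFI30 (2497 to 4453 in early, 694 to 2184 in late CCH) and DLA-DOA (5.71 to 33.5 in early, 40.9 to 522 in late CCH), and overlap for the other 10 genes.

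The alpha chain of the DR molecule is encoded by DLA-DRA. Its normalized read counts were 8797, 10370, 11693, 16192 and 14262 in early libraries 1 to 5 and 9749, 11595, 14411, 15736 and 12308 in late libraries 1 to 5. The stages overlapped along their whole range. The log2FC was 0.07 with a 95% interval of -0.37 to 0.51.

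HLA-DRB1 encodes the polymorphic beta chain of DR. It stood at 22612, 36309, 31855, 40108 and 33034 in the early libraries. In the late libraries it stood at 32412, 29332, 43822, 33703 and 32712. Early library 1 was the lowest and late library 3 the highest, and the other 8 libraries, at 29332 to 40108, showed no order by stage. The log2FC was 0.08 (interval -0.36 to 0.52), which for both DR chains leaves room for a change of at most 1.44-fold upward.

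The DQ molecule is a second class II pair. DLA-DQA1, its alpha chain, was at 2275, 2827, 6243, 3147 and 3789 in early and 2116, 2694, 5920, 5042 and 4928 in late CCH. It varied more among tumors of the same stage than the DR chains, with a coefficient of variation of 42.3% in early and 39.7% in late CCH against 19.9% and 16% for HLA-DRB1. DLA-DQB1, the beta chain, ranged from 662 to 1503 in early and from 999 to 1507 in late CCH. The log2FC was 0.16 for DLA-DQA1 (interval -0.54 to 0.86) and 0.14 for DLA-DQB1 (interval -0.34 to 0.61). DR and DQ chains differ in sequence between dogs, and reads of all dogs were aligned to the same reference sequence. The part of such alleles in the differences between libraries was not tested.

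CD74 followed HLA-DRB1 in abundance. Its values were 9628, 10250, 14296, 18165 and 12591 in early and 12530, 12205, 22567, 14446 and 14883 in late CCH. Late library 3 exceeded all others, and the remaining late libraries lay within the early range. The log2FC was 0.24 (interval -0.25 to 0.73), and 0.09 without late library 3. In that library the summed level of 10 B cell markers was 3529, whereas it was 658 to 825 in the early and 662 to 1335 in the other late libraries. The part of B cells in its CD74 level was not tested.

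The subunits of the peptide exchanger DM had log2FC values of opposite sign, and neither was called. DLA-DMA was at 786, 857, 863, 626 and 1345 in early and at 615, 521, 433, 755 and 717 in late CCH. Early library 5 was the highest, and 3 late libraries lay below all early ones. The log2FC was -0.54 (interval -1.001 to -0.08), with a limma BH-adjusted p of 0.103. DLA-DMB ranged from 595 to 1407 in early and from 828 to 1798 in late CCH, with a log2FC of 0.34 (interval -0.18 to 0.86). The sum of both DM subunits was 0.0558% ± 0.0086 of early and 0.0583% ± 0.0129 of late reads (SD, n = 5), a difference smaller than the spread of either stage.

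DO was the rarest of the class II pairs, and its alpha subunit had the widest separation of the stages. DLA-DOA was at 5.71, 33.5, 9.95, 31.5 and 8.59 in early libraries 1 to 5, which corresponds to 6 to 40 reads. In late libraries 1 to 5 it was at 273, 98, 522, 221 and 40.9, or 39 to 539 reads. Every late library lay above every early one, which held for 5.91% of all genes tested, but late library 5 exceeded early library 2 only narrowly. The log2FC was 3.47 ± 0.66 (SE, interval 2.04 to 4.90), and the BY-adjusted p of 0.06 from limma missed the threshold. DLA-DOA passed the filter on low values through its late libraries, since only 2 early libraries reached a value of 10. With BH adjustment, which called 9.04% of all genes tested, its adjusted p was 0.00599. It was called as well with DESeq2, with array weights, and when late library 5, the lowest late one, was left out (limma, BY-adjusted p = 0.0397). It was not called with edgeR (BY-adjusted p = 0.0626). Nor was it called in limma with TMM scaling (0.0595), column-total scaling (0.0518), a pseudocount of 0.5 (0.0643) or no filter (0.0633). Leaving out any other library gave a BY-adjusted limma p of 0.0535 to 0.201.

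DLA-DOB, the beta subunit of DO, was at 40, 38.1, 105, 39.4 and 91.3 in early and 113, 86.6, 186, 85.9 and 57.7 in late CCH. Early libraries 3 and 5 reached the late range, and late library 3 was again the highest. Its log2FC was 0.78 (interval -0.03 to 1.59, limma, BH-adjusted p = 0.176). DLA-DOA was below DLA-DOB in all early libraries and above it in 4 of the 5 late ones. Of the 10 B cell markers, 8 were tested. None was called with BY in limma or edgeR. An unadjusted p of at most 0.05 in limma was found for 6 of the 8, against 30.9% of all genes tested. With BH, where the share over all genes tested was 9.04%, 4 were higher in late CCH, and 3 were called with DESeq2. Their median log2FC was 2.54. CD79A, CD79B and MS4A1, of the B cell receptor complex and the B cell surface, were higher in every late than in every early library, with 312, 31.8 and 33.8 in late library 1. The summed level was still within the early range in that library (662), as CD22 and BANK1, which hold much of the sum, had log2FC values of -0.28 and -0.87. The part of B cells in the DLA-DOA level was not tested. Without late library 3, the log2FC of DLA-DOA was 3.06 with a BY-adjusted p of 0.113.

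CIITA was at 125, 189, 213, 199 and 301 in early and 193, 297, 520, 448 and 312 in late CCH. Of the late libraries, 3 lay above all early ones. The log2FC was 0.76 ± 0.28 (SE, interval 0.15 to 1.37), with a limma adjusted p of 0.875 after BY and 0.0875 after BH. Without late library 3 the log2FC was 0.60. CIITA thus had an interval above 0 that did not hold after adjustment, beside presenting chains and CD74 with intervals across 0.

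CTSS, the protease that trims CD74, did not separate the stages. It was at 2940, 9279, 4127, 4227 and 5503 in early and 6913, 3918, 3166, 4878 and 6136 in late CCH. The highest and the lowest value both belonged to early tumors. The log2FC was -0.01 with an interval of -0.65 to 0.64.

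IFI30 fell in late CCH. Its normalized read counts were 4112, 2497, 3731, 4453 and 2520 in early libraries 1 to 5, and 694, 1209, 2184, 1005 and 932 in late libraries 1 to 5. Every late library lay below every early one, which held for 6.05% of all genes tested. Late library 3 came closest, at 2184 against 2497 in early library 2. The log2FC was -1.59 ± 0.28 (SE), which is a fall to a level 3.02-fold lower (interval 1.98 to 4.6, limma, BY-adjusted p = 0.0453). This adjusted p lay close to the threshold and rose above it when 8 of the 10 libraries were left out in turn, to between 0.0823 and 0.153. The call held without early library 2 (0.0440) and without late library 3 (0.0130). Over all alternatives the log2FC stayed between -1.84 and -1.42.

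All 12 genes passed the filter on low values, 11 of them with every library of both stages. Of the 12, 9 genes had a log2FC above and 3 below 0, with a median of 0.15 against -0.004 over all genes tested. An unadjusted p of at most 0.05 was found for 4 of the 12 genes (33.3%), against 30.9% of all genes tested. For 7 of the 12, the 95% interval excluded a change of 2-fold or more in either direction. The stages did not overlap for 2 of the 12 genes, DLA-DOA and IFI30, against 12% of all genes tested in either direction.

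Ratios within a library are free of its scaling, and 8 had been chosen to compare steps of the pathway. With a smallest exact p of 0.00794, a single ratio among 8 cannot go below an adjusted p of 0.0635, so that full separation in 1 ratio alone cannot pass. None of the 8 passed after BH adjustment, and 1 had an unadjusted p under 0.05. The ratio of IFI30 to CD74 ranged from 0.200 to 0.427 in early and from 0.0555 to 0.0991 in late CCH, and was lower in 5 of 5 late libraries than in any early one. The mean log2 ratio was lower by 1.83 in late CCH (p = 0.00794 in a two-sided exact permutation test, which cannot go lower, adjusted p = 0.0635). CIITA per CD74 was at 0.0110 to 0.0240 in early and 0.0155 to 0.0311 in late CCH (log2 difference 0.52, exact permutation p = 0.0794, adjusted p = 0.317).

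The proportions of the DR chains and CD74 overlapped between the stages. HLA-DRB1 exceeded DLA-DRA by 2.32- to 3.50-fold in early and 2.14- to 3.32-fold in late CCH (log2 difference 0.01, exact permutation p = 0.952). CD74 was at 0.883 to 1.22 times the level of DLA-DRA in early and 0.918 to 1.57 times in late CCH (log2 difference 0.17, exact permutation p = 0.302). The remaining 4 ratios, DLA-DQA1 and DLA-DMB to DLA-DRA, DLA-DOB to DLA-DMB, and CTSS to CD74, had exact permutation p-values from 0.190 to 0.778.

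**Figure D2:**
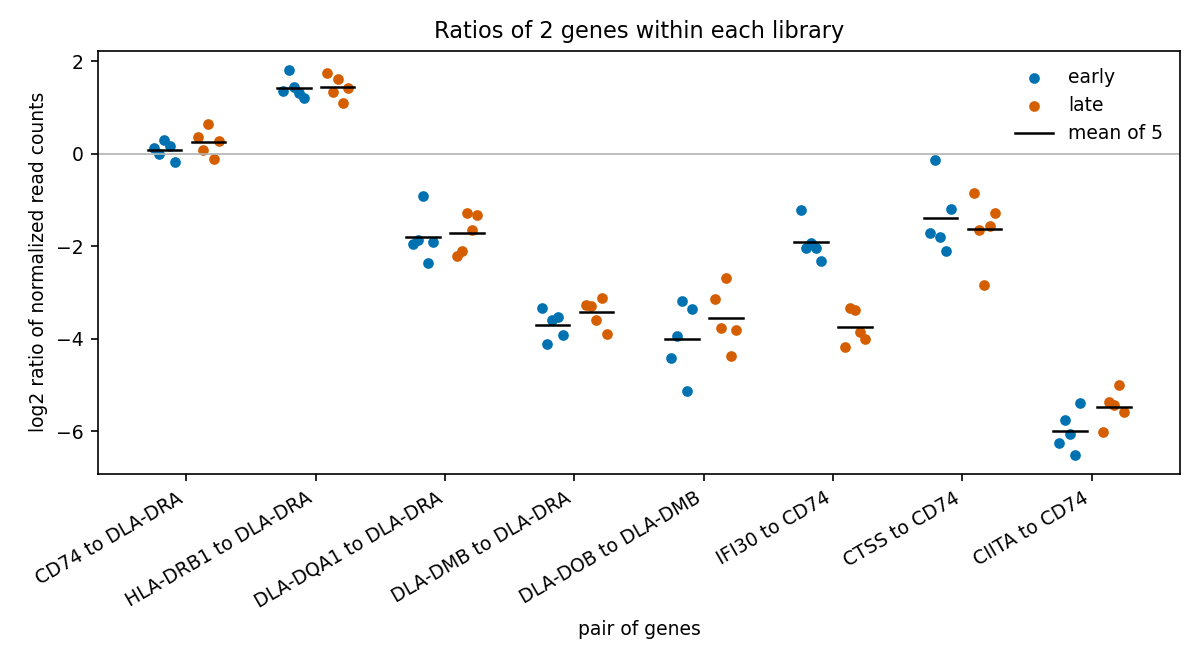
Log2 ratio of the normalized read counts of 2 genes within each library, for 8 pairs. Points are early (left) and late (right) libraries and lines are means of 5. The IFI30 to CD74 ratio is lower in all late than in all early libraries, with means of -3.74 and -1.91, while the other 7 ratios overlap between the stages.

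The order of the levels held in every tumor at some steps and was mixed at others. HLA-DRB1 exceeded CD74 in 10 of 10 libraries, by a median of 2.34-fold, and DLA-DRA exceeded CTSS in 10 of 10. CD74 was above DLA-DRA in 7 of 10 libraries with a median ratio of 1.11, so that their order varied among libraries. The order also varied for CTSS and DLA-DQA1 (7 of 10) and for DLA-DQB1 and DLA-DMB (7 of 10). Differences in level between genes were not tested. The place of IFI30 depended on the stage. It exceeded DLA-DQB1 in 5 of 5 early libraries, by 1.83- to 6.21-fold, but in 2 of 5 late ones. DLA-DQA1 exceeded IFI30 in 3 of 5 early and 5 of 5 late libraries, in the latter by 2.23- to 5.29-fold. DLA-DMB was above DLA-DMA in 3 of 5 early and 5 of 5 late libraries. DLA-DMA was above CIITA in 9 of 10 and CIITA above DLA-DOA in 8 of 10 libraries. Among all genes, IFI30 ranked between 98 and 180 in early and between 176 and 715 in late CCH.

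Library by library, the DR and DQ chains, CD74 and CIITA tended to rise and fall together. After the mean of each stage had been subtracted from log2 values, the 15 pairs among DLA-DRA, HLA-DRB1, DLA-DQA1, DLA-DQB1, CD74 and CIITA had Pearson coefficients from 0.45 to 0.81 over the 10 libraries, with a median of 0.64. The closest pairs were DLA-DRA with CIITA (0.81), HLA-DRB1 with DLA-DQB1 (0.79) and HLA-DRB1 with CD74 (0.78). Over all 66 pairs of the 12 genes the median was 0.29. The DM and DO chains were mixed. With CD74 the coefficients were 0.48 for DLA-DMB, 0.44 for DLA-DOA, 0.41 for DLA-DOB and -0.41 for DLA-DMA. DLA-DMA did not follow its partner DLA-DMB (-0.16). These coefficients describe 10 libraries that share their scaling, and no test was made of them.

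CTSS and IFI30, which both act on proteins in the endosome, ran opposite to each other within the stages (r = -0.83, n = 10). This was the lowest coefficient among the 66 pairs of the 12 genes. Early library 2 had the highest CTSS of all, 9279, with the lowest early IFI30, 2497. Late library 1 had the highest late CTSS, 6913, with the lowest late IFI30, 694, and late library 3 had the lowest late CTSS, 3166, with the highest late IFI30, 2184. The summed level of 10 macrophage markers was highest in the same 2 libraries, with 11552 in early library 2 and 11713 in late library 1. It ran with CTSS (r = 0.91) and against IFI30 (r = -0.72) within the stages. The 0.91 was the highest coefficient of any of the 12 genes with any marker list. All these coefficients had been seen before some were named, and no test was made of them. Summed levels of the macrophage markers were 2658 to 11552 in early and 6044 to 11713 in late CCH, and 0 of the 9 tested were called with BY in limma or edgeR. Of the 9, 5 had an unadjusted p of at most 0.05 in limma, against 30.9% of all genes tested. With BH, where that share was 9.04%, 2 were higher, and 1 was called with DESeq2. The B cell sum ran with IFI30 within the stages (r = 0.81), the highest coefficient after that of CTSS with the macrophage sum. With the lists other than B cell and macrophage, IFI30 had coefficients from -0.08 to 0.48. CD79A was at 47.6, 103, 169, 108 and 32.2 in early libraries 1 to 5, where IFI30 was at 4112, 2497, 3731, 4453 and 2520. CD22, at 375 to 576 in early CCH, held much of the early B cell sum (658 to 825). Late library 3, with the highest late IFI30, stood far above the rest in this sum (3529, against 662 to 1335 in the other late libraries). In the B cell sum 4 of 5 late libraries exceeded every early one, late library 5 only narrowly (831 against at most 825). The 11 Langerhans and dendritic cell markers analysed summed to 1295 to 3451 in early and 1003 to 1448 in late CCH. The markers FLT3 and FCER1A were called lower, while CCR7 (log2FC 2.38, higher with BH) and XCR1 (2.44, BH-adjusted p = 0.0682, limma) had the opposite sign, and 4 of the 10 tested were called with DESeq2. The part of these cell types in the fall of IFI30 was not tested.

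**Figure D3:**
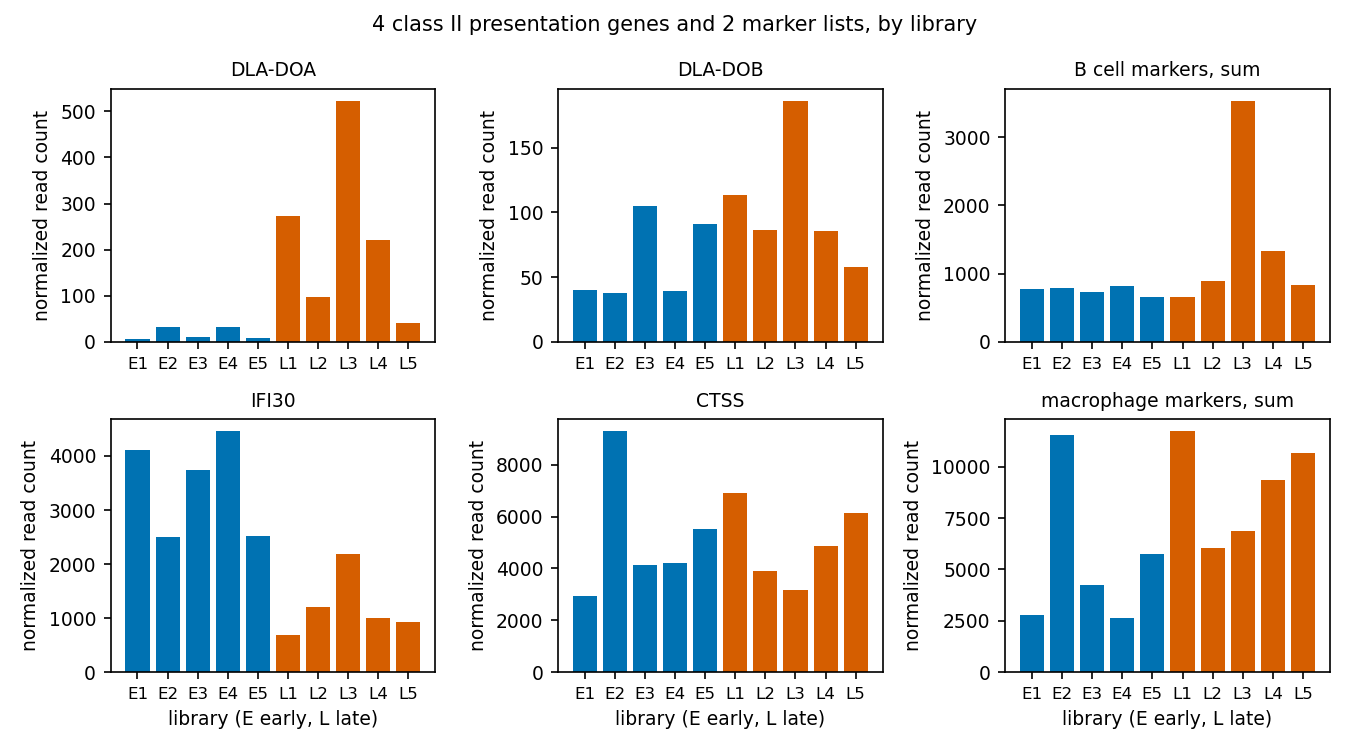
Normalized read counts by library for DLA-DOA, DLA-DOB and the sum of 10 B cell markers (upper row), and for IFI30, CTSS and the sum of 10 macrophage markers (lower row). Bars E1 to E5 are early and L1 to L5 late libraries. Late library 3 is highest for DLA-DOA (522), DLA-DOB (186) and the B cell sum (3529), and within each stage CTSS is highest where the macrophage sum is highest.

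Genes tested were ranked by likeness to CD74 and CIITA, without symbols that start with LOC and without the class II presentation genes themselves. Of the rest, those most like CD74 in stage-centered levels were PKIB (r = 0.955), CCDC136 (0.937), CASC3 (0.934), RPL7 (0.932) and MGRN1 (0.931). For CIITA they were DTNA (0.954), MIR29B-2 (0.915), MIR29C-2 (0.913), MED13L (0.912) and EVI5L (0.906). These are the highest coefficients among the genes ranked, over 10 libraries. Those for CD74 were above the coefficient of CD74 with any class II chain, of which the highest was 0.78 (HLA-DRB1). MIR29B-2 and MIR29C-2 had nearly the same levels, with means of 40.1 each in early and of 33.5 and 34.1 in late CCH. Whether they are separate signals was not tested. The mean of DTNA in late CCH was only 7.72, and the means of PKIB were 1183 in early and 219 in late CCH, against 12986 and 15326 for CD74.

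All 12 symbols were found in the RefSeq annotation of the dog assembly UU_Cfam_GSD_1.0, where the 8 class II genes lie on the same chromosome. This assembly is not the one to which the reads were aligned, so it was used for the order of genes alone. Unassigned reads had been counted a second time on genes extended at their 3′ end, and a neighbor might share reads with a gene in this list. PIK3R2, a regulatory subunit of PI3 kinase and the neighbor of IFI30 on one side, fell as well, while MPV17L2 on the other side had a log2FC of -0.46 (BY-adjusted p = 1). PIK3R2 was at 181, 125, 165, 184 and 233 in early and 25.9, 32.3, 39.7, 40.9 and 51.4 in late CCH (log2FC -2.20, BY-adjusted p = 0.00535). IFI30 was 10.8 to 24.2 times as high as PIK3R2 in early and 18.1 to 55 times in late CCH. Next to DLA-DOA lies COL11A2, a collagen chain gene. It was at 0.952, 1.86, 25.3, 22.1 and 4.29 in early and 32.8, 68.5, 68.8, 39.9 and 52.5 in late CCH (log2FC 2.86, BY-adjusted p = 0.176). On its other side, BRD2 had a log2FC of -0.10. Whether reads were shared between these neighbors was not tested.

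Other genes of the pathway were taken from a list of 46 in 5 sets, of which 39 were in the table and 38 were tested. Only CTSD was called with BY, where the share over all genes tested was 2.17%. With BH 9 were higher and 1 was lower in late CCH, where that share was 9.04%. The log2FC was above 0 for 27 and below 0 for 11 of the 38, with a median of 0.37.

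CTSD, the gene of the aspartic protease cathepsin D, rose from 367 ± 63.6 to 2199 ± 605 normalized reads in late CCH (SD, n = 5 each). This was the only call among the 10 endosomal and lysosomal genes tested, with a log2FC of 2.54 (interval 2.08 to 3.00, limma, BY-adjusted p = 0.00201). TFEB, a transcription factor of lysosomal genes, had the lowest log2FC of this set, -1.03 (BY-adjusted p = 0.0797, limma), and was lower in late CCH with BH. The median log2FC of the set was 0.41.

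Of the 17 regulators of class II transcription, none was called with BY in limma or edgeR. An unadjusted limma p of at most 0.05 was found for 9 of the 17, against 30.9% of all genes tested. With BH, which called 9.04% of all genes tested, 3 were higher (IRF1, IRF8 and PRDM1, with log2FC values of 1.21, 1.27 and 1.03). Of them 2, IRF1 and IRF8, were called with DESeq2. IRF1 and IRF8 are transcription factors of the interferon response, and PRDM1 is a repressor of CIITA in plasma cells. The highest log2FC was that of IFNG, the cytokine that induces CIITA, 2.19 (interval 0.27 to 4.10), and the lowest that of IFNGR1, a chain of its receptor, -1.07 (interval -2.09 to -0.04). Both had a BH-adjusted p above the threshold (0.113 and 0.146). IFNG was low in early CCH, with 58 reads over the 5 libraries, of which 2 reached a value of 10 and 1 was at 0. In late CCH it ranged from 11.2 to 138. The median log2FC of the set was 0.14.

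Among the 3 genes of surface turnover, CD83, which slows the removal of class II from the surface, had the highest log2FC (1.09, higher with BH), and the ubiquitin ligase gene MARCH1 the lowest (-0.15). Of the 4 receptors and partners tested, the highest was CD4, the T cell receptor for class II, with 3.52 (BY-adjusted p = 0.121), and the lowest CD44, a partner of CD74, with 0.13. In this set CD4, LAG3 and CXCR4 were higher with BH in limma and with DESeq2, and none with BY in limma or edgeR. The late samples were the ones labeled as enriched in lymphocytes. Of the 4 costimulatory genes, CD80 had the highest log2FC (1.31, higher with BH) and CD86 the lowest. CD86 was at 2171 ± 334 in early and 1237 ± 137 in late CCH (SD, n = 5), with all late libraries below all early ones. Its BY-adjusted p was 0.0460, but the log2FC of -0.81 was short of the size a call required.

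**Figure D4:**
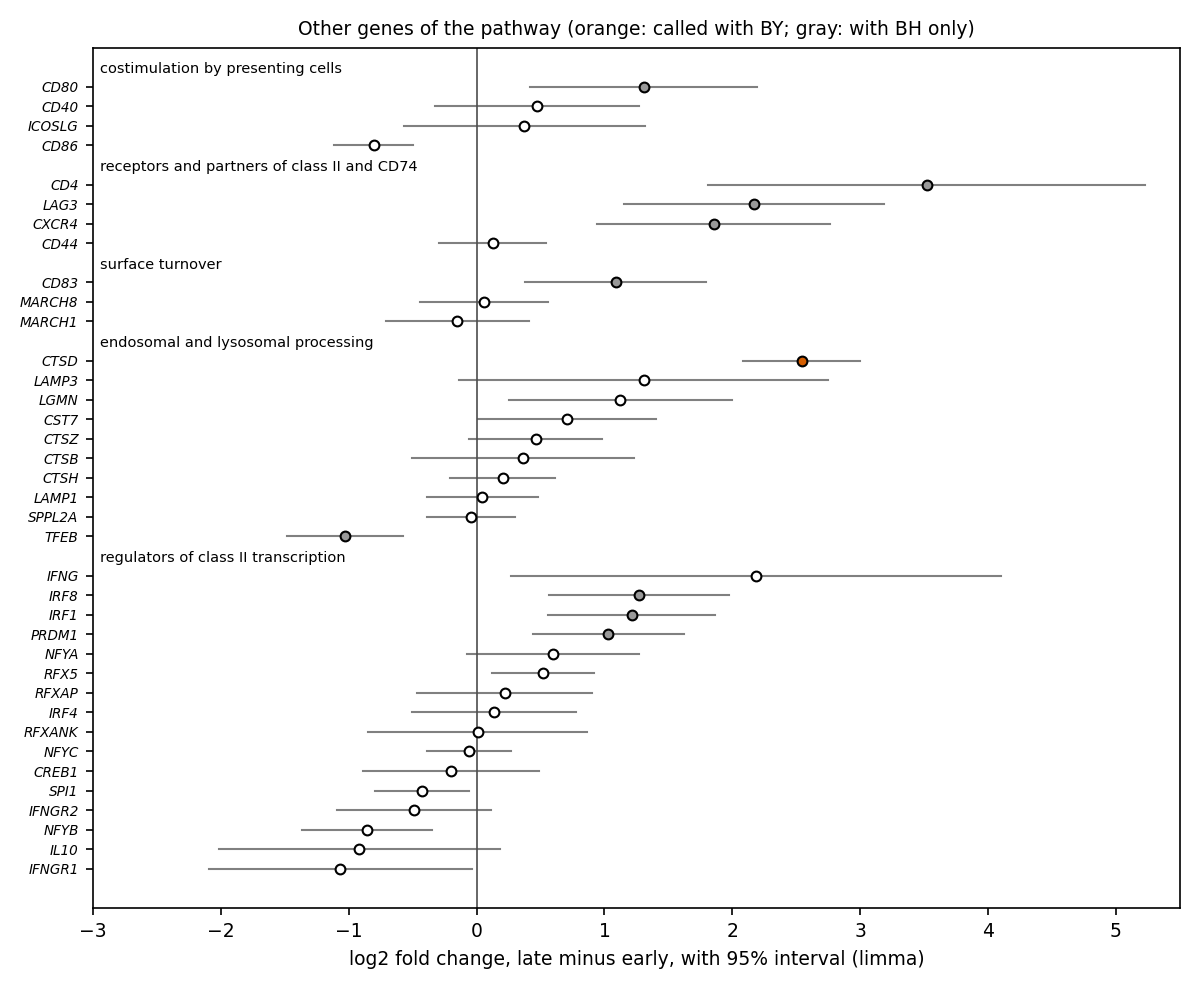
Log2FC of late against early CCH with 95% limma intervals for 37 of the 38 other pathway genes tested, in 5 sets. Orange marks a call with BY adjustment (CTSD, 2.54), gray a call with BH only, and white neither. The regulators spread on both sides of 0, whereas the 4 receptors and partners all lie above it.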

How the data were processed

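Total RNA from FFPE sections was made into QuantSeq 3′ libraries with the protocol for low-quality RNA. Per the labels and the methods of the study, reads were trimmed with Cutadapt, aligned to CanFam3.1 with STAR and counted with featureCounts, a second time on genes extended at the 3′ end. A read that mapped to several places was shared evenly among them. The unit of the deposited table is a normalized signal: the authors scaled the counts of each library with 1 size factor. Versions of their tools are not given in the sources used here. Whole reads were recovered for 100% of the values above 0 in the 10 columns used (tolerance 0.001 reads). Even sharing gives fractions of a read and none were found, so the recovered reads may be rounded counts, which was not tested. The other 11 columns of values match no sample and were not used. Column names give the stage but not the sample, so libraries are numbered only to name them, and labels such as DV200 could not be tied to a library.

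Genes that reached a normalized count of 10 in 5 or more libraries entered limma 3.58.1 (mean-variance trend, log2(value + 1), 5 late against 5 early, no covariates) in R 4.3.3. A fold change on this scale understates that of low genes. P-values were adjusted over all genes tested. Depth was 2973125 to 4439709 reads, and 3 reads, taken as the upper limit behind a count of 0 (counting error only), correspond to values of 2.36 to 3.22. Ratios were compared with an exact permutation test over 252 assignments. The alternatives were a pseudocount of 0.5, no filter, TMM or column-total scaling, BH, edgeR 4.0.16 on the recovered reads, DESeq2 1.42.0, array weights and leaving out each library. The scripts were tested on simulated data. The members and all lists were chosen with earlier results of these data known. Named were all 12 genes, and of the related list the calls and the highest and lowest log2FC of each set. Also named were the 5 genes most like CD74 and CIITA, ranked without LOC symbols and without the members. IRF1, IRF8, PRDM1, LAG3, CXCR4, the markers (CCR7, XCR1, CD22 and BANK1 among them) and the neighbors were named after their values were seen. A single gene of the related list counts in its set but is not reported here.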

Additional observations from a re-analysis of the deposited data

Results flagged for a closer look

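CD74 in late CCH stood out for a single sample far from the others. Late library 3 was at 22567, and the other late libraries lay between 12205 and 14883, so that its gap to the nearest library took 0.742 of the whole range, above the critical value of 0.71 for 5 samples. Of 40 groups examined in this way, 1 was past its critical value, where chance gives about 2. The same library had the highest B cell marker sum, and this was not tested as a source of its CD74 level.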

How the results depend on the processing

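No paired analysis was possible because early and late tumors came from different dogs and no column name holds a replicate number from the labels. The number of genes called over all genes tested was 1121 with BH, 177 with edgeR, 810 with DESeq2 and 418 with array weights, and between 49 (without early library 5) and 260 (without early library 2) when libraries were left out. Of the 12 class II presentation genes, 0 were called without a filter, with column-total scaling and with edgeR, 2 with BH, with DESeq2 and with array weights (IFI30 and DLA-DOA), and 0 or 1 when a library was left out. With all libraries, 4 of the 12 had in limma, edgeR and DESeq2 alike an unadjusted p of at most 0.05. The BY-adjusted p of IFI30 was 0.0507 without a filter, 0.0535 with column-total scaling and 0.0780 with edgeR. That of DLA-DOA was 0.0397 to 0.201 when libraries were left out. Of the related genes, 10 were called with BH, 7 with DESeq2 and 2 with array weights, and 1 to 3 when libraries were left out (3 without early library 2, 2 without late library 3).

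Changes of direction concerned values of at most 0.25 in size with all libraries. The largest was the late minus early log2 ratio of CTSS to CD74 (-0.25). The log2FC of CTSS was 0.084 with column-total scaling, 0.047 with array weights and -0.18 to 0.23 when libraries were left out. Leaving out libraries gave -0.074 to 0.23 for DLA-DQB1, -0.040 to 0.18 for DLA-DRA and -0.046 to 0.16 for HLA-DRB1. For the log2 ratios it gave -0.064 to 0.11 for HLA-DRB1 to DLA-DRA, -0.050 to 0.31 for DLA-DQA1 to DLA-DRA and -0.44 to 0.065 for CTSS to CD74, which was 0.14 as a difference of medians. The cause was not tested. Column-total scaling moved the share of calls that were higher in late CCH from 48.7% to 64.0%, and BH moved it to 61.1%. The early values of DLA-DOA rest on 6 to 40 reads per library, which limits its fold change, and the p-values measure the spread among 5 tumors of each stage.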
